A study of Homo sapiens with 6 samples.

Results

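Long intergenic noncoding RNA (lincRNA) genes were followed in METTL3-silenced ARPE-19, an established human cell line from retinal pigment epithelium (RPE). The members were all rows of the deposited gene table whose gene type was lincRNA, 308 of 7758 listed genes. The rule used the gene type alone, but the table lists only genes that differed between these same libraries, so measured values decided which lincRNA genes could be members. A hairpin that targets METTL3 was expressed in 3 libraries (sh-METTL3) and a scramble hairpin in another 3 (sh-Control). Both groups received lipopolysaccharide (LPS) at 1 µg/ml for 24 h, so no unstimulated cells enter the comparison. The study's methods describe lentiviral infection and selection of stable strains with puromycin. The sources used here give no origin of the 3 libraries within a group, be it separate cultures or a single strain, so the p-values measure the spread between these libraries, which may be technical. The table holds only genes that the authors had called as different between the groups. Counts of called genes and shares of higher or lower genes therefore describe the list, not all transcripts of the cell.

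A lincRNA gene is named for lying between protein-coding genes, although 48 members overlap such a gene in the annotation. It gives a transcript, often spliced and polyadenylated, that has no recognised reading frame. Some lincRNAs build nuclear bodies (NEAT1 in paraspeckles), some are host genes whose introns or exons hold small nucleolar RNAs (snoRNAs) or microRNAs (miRNAs), and many start next to the promoter of a protein-coding gene and run the other way. METTL3 is the catalytic subunit of the complex that writes N6-methyladenosine (m6A) on RNA, and MALAT1 and NEAT1 are among the noncoding RNAs that are known to carry this mark. No m6A measurement entered the values given here.

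Each value is a scaled count, that is, the reads of a gene in a library divided by 1 size factor for that library, as the authors deposited it. Per library, between 10898434 and 17750052 reads fell on the listed genes. The targeted gene was lower, from 1118 ± 32.8 in sh-Control to 911 ± 128 in sh-METTL3 (SD, n = 3 each), by -0.30 on the log2 scale (limma, adjusted p = 0.032). The difference was not past the threshold of 0.05 in edgeR with RLE factors (log2 fold change -0.17, adjusted p = 0.261) or TMM factors, in limma without the intensity trend, or without any 1 of the control libraries, and it was -0.18 without sh-METTL3 replicate 3. Of the RPE markers, 7 of 14 were listed (SERPINF1, KRT8, PMEL, MITF, KRT18, LRAT and BEST1), 4 higher and 3 lower. Their summed scaled count was 18864 to 20134 in sh-Control and 30158 to 33478 in sh-METTL3. Such a sum follows the most abundant genes and does not show a common direction of the markers. RPE65, RLBP1 and the other unlisted markers were not analysed here. Of the fibroblast markers 4 of 7 were listed, all 4 lower, with sums of 11364 to 13232 and 4730 to 5383, and of the leukocyte markers only CD14 was listed, at 24.7 to 25.9 and at 0 to 2.80. The part of these marker differences in the values below was not tested. In bulk RNA, fewer cells of a type and less RNA per cell cannot be told apart.

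Promoters are shown first for 3 members, because the position of a member beside a protein-coding gene went with its direction in the counts given further on. The sequences were taken from RefSeq (GRCh38.p14), which held a promoter for 143 of the 308 members, and each runs 5′ to 3′ on the strand of the lincRNA gene from 250 bases before to 50 bases after the start that RefSeq gives. SNHG19 (chr16:2155309-2155608, minus strand) hosts a snoRNA and starts beside TRAF7. AP006621.3 (chr11:777328-777627, plus strand) starts beside GATD1. LINC00839 (chr10:42475241-42475540, plus strand) rose most of all members and has no protein-coding gene beside its start. Its RefSeq start lies 52 bases upstream of the GENCODE start, so the stretch shown ends before the latter. Capitals mark CCAAT and TATAAA on either strand, a CCAAT box on the other strand being read as ATTGG.
SNHG19: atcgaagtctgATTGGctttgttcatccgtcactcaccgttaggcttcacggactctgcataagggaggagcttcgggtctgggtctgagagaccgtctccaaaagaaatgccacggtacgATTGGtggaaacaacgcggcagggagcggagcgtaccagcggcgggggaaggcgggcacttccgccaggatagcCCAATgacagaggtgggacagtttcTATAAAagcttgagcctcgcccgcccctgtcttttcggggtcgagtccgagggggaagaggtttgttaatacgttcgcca
AP006621.3: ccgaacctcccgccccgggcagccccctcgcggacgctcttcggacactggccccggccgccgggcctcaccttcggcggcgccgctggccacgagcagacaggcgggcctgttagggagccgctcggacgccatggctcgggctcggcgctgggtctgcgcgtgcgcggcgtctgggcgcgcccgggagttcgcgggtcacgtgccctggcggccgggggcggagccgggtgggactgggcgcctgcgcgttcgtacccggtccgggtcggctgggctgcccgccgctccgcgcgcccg
LINC00839: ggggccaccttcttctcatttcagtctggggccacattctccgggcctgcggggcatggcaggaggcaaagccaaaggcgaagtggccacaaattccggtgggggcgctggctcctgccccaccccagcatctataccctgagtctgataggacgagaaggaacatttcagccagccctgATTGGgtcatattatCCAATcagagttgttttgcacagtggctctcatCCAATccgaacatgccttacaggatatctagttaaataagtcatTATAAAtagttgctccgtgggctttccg
The promoter of AP006621.3 held 50 CpG dinucleotides and neither motif, with an observed over expected CpG ratio of 1.04. SNHG19 held 23 CpG dinucleotides (ratio 0.96), 3 CCAAT boxes and 1 TATAAA. LINC00839 had the same count of both motifs but only 9 CpG dinucleotides, a ratio of 0.43.

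Most lincRNA genes in the list were higher in the METTL3-silenced cells. Of the 308 members, 304 passed an adjusted p of 0.05 by limma, against 97.9% of all listed genes, and 243 of them were higher and 61 lower. The background over all listed genes was 46.6% higher and 51.3% lower. The share of called members that were higher was 79.9%, compared with 43.7% for the 6740 protein-coding genes and 78.7% for the 289 antisense genes, a related noncoding type. The median log2 fold change was 1.23 for lincRNA genes (quartiles 0.59 and 1.87) and -0.21 for all listed genes. The medians lay closer among genes of like level, at 2.23 for lincRNA and 2.06 for protein-coding genes with a mean under 10, and 1.57 and 1.27 from 10 to 30. From 30 to 100 they were 1.07 and 0.84, from 100 to 300 they were 0.66 and -0.40, and at 300 or more 0.46 and -0.26. All 3 sh-METTL3 libraries lay above all 3 control libraries for 245 members and below them for 61, and the groups overlapped for 2, against a background of 98.5% without overlap. The 4 members that were not called had positive log2 fold changes. They were AL645608.4 (1.88), AC091271.1 (1.64), ERICD (0.99) and FAM66B (0.55), named after their values were seen, with adjusted p of 0.189, 0.0524, 0.0626 and 0.0523 by limma.

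The members were expressed weakly, and the direction was also compared within levels. The median scaled count over the 6 libraries was 33.8 for lincRNA genes and 738 for protein-coding genes, and per kilobase of exon it was 18.9 and 135. A total of 66 members had a mean under 10, 119 reached 50 and 3 reached 1000. Among genes with a mean under 10, 74.2% of lincRNA genes and 60.9% of protein-coding genes were higher. From 10 to 30 the shares were 85.7% and 59.4%, from 30 to 100 they were 84.3% and 58.4%, and from 100 to 300 they were 82.2% and 48.3%. Among genes at 300 or more, 64.5% of 31 lincRNA genes and 39.8% of 4778 protein-coding genes were higher. The difference in direction between the gene types was thus present in each of the 5 level ranges and was smallest among the weakest genes.

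**Figure D1:**
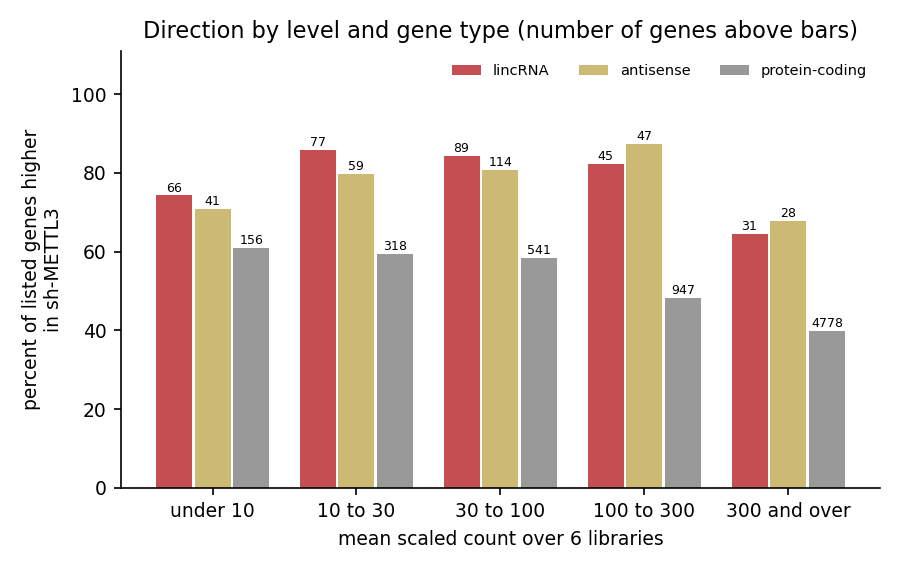
Percent of listed genes with a higher level in sh-METTL3 (vertical axis) by mean scaled count over the 6 libraries (horizontal axis), for lincRNA, antisense and protein-coding genes, with the number of genes above each bar. The lincRNA bars lie between 64.5% and 85.7% and above the protein-coding bars in every range.

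Shares were also compared by kind of name and by splicing. Of the 154 members named by a clone accession 81.8% were higher, and of the 154 with a symbol 78.6%. The 89 members with a single block of exons were higher in 83.1% of cases, and the 219 with more blocks in 79.0%. The share was 60.9% higher for processed transcripts, 66.1% for processed pseudogenes and 58.3% for sense intronic genes, and 10 of 11 bidirectional promoter lncRNAs were called higher. None of these shares was tested.

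The share of counts that lincRNA genes took was also compared. They held 0.637%, 0.541% and 0.610% of the scaled counts on listed genes in the control libraries. The shares in the sh-METTL3 libraries were 0.891%, 0.891% and 0.906%. The groups did not overlap, and the difference of 0.30 percentage points had an exact permutation p of 0.1 (two-sided), the smallest that 3 against 3 libraries allow. Because the members were listed for differing between these same libraries, this p is not independent of their selection. A large part of this lay in NEAT1, whose own share went from 0.311% to 0.529%, while that of MALAT1 went from 0.108% to 0.0907%. Without both genes the lincRNA share was 0.177% ± 0.0044 in sh-Control and 0.276% ± 0.0077 in sh-METTL3 (SD, n = 3 each).

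**Figure D2:**
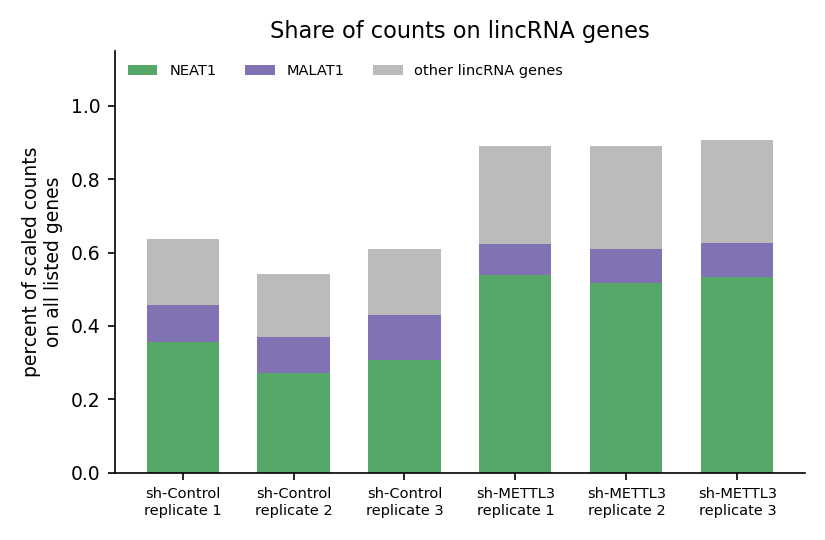
Percent of the scaled counts on all listed genes (vertical axis) that fell on lincRNA genes in each of the 6 libraries, split into NEAT1, MALAT1 and all other lincRNA genes. The 3 control bars reach at most 0.637% and the 3 sh-METTL3 bars at least 0.891%, with the NEAT1 segment the tallest in each.

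NEAT1 and MALAT1, neighbours on chromosome 11, moved in opposite directions. NEAT1 (ENSG00000245532, chromosome 11, 65422774 to 65445540, plus strand), the scaffold of paraspeckles, had scaled counts of 50368, 39344 and 44043 in sh-Control and of 75261, 72622 and 72997 in sh-METTL3. The sh-METTL3 libraries were close together and all above the controls, and the log2 fold change was 0.73 (SE 0.095, adjusted p = 0.000196 by limma). MALAT1 (ENSG00000251562, 65497688 to 65506516, plus strand), an abundant RNA of nuclear speckles, had 14399.5, 14204 and 17779 in sh-Control and 12061, 13201 and 12588 in sh-METTL3. The control libraries varied more than the sh-METTL3 libraries, although the groups did not overlap. Its log2 fold change was -0.29 (SE 0.086, adjusted p = 0.025 by limma), and it lost the call in edgeR with RLE factors (adjusted p = 0.264), in limma without the intensity trend and without sh-Control replicate 3 or sh-METTL3 replicate 1. By level per kilobase NEAT1 (2596 scaled counts) and MALAT1 (1590.1) stood first and second among the members.

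The next members by level per kilobase were in most cases higher. AL161431.1 (chromosome 13, 109269634 to 109278512) had 1382, 1057 and 883 in sh-Control and 3516, 3817 and 3890.0 in sh-METTL3, a log2 fold change of 1.78. Its lowest sh-METTL3 library was well above its highest control. LINC00973 went from 549 ± 22.7 to 929 ± 75.9, and LINC00106, on the X chromosome, from 232 ± 12.0 to 336 ± 29.8 (SD, n = 3 each). AC009549.1, which overlaps NAV2 on the other strand, had a log2 fold change of 1.13. LINC01638 was lower, with 525, 513 and 516 in sh-Control and 227, 253 and 191 in sh-METTL3 (log2 fold change -1.22). The nearest listed protein-coding gene to it was MN1, 526928 bases away by gene start, which was also lower (log2 fold change -1.30).

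**Figure D3:**
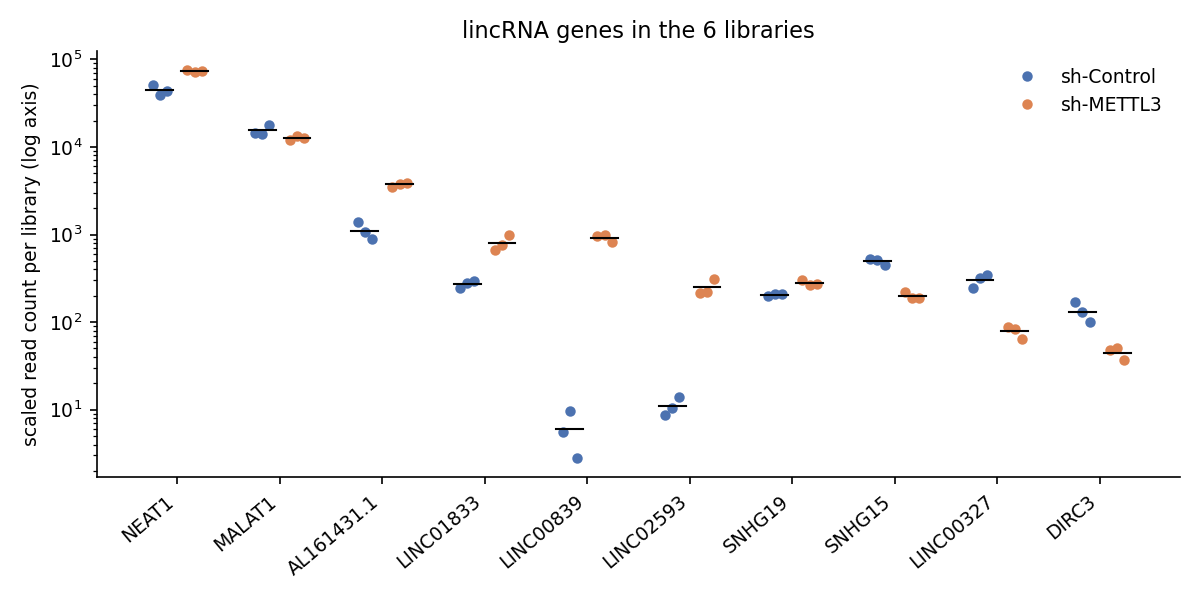
Scaled read count (vertical log axis) of 10 lincRNA genes in each of the 3 sh-Control and 3 sh-METTL3 libraries, with a black line at each group mean. NEAT1 and MALAT1 move in opposite directions at high levels, and LINC00839 moves from at most 9.61 in sh-Control to at least 815 in sh-METTL3.

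Among members with a mean of at least 50, the largest rise was that of LINC00839 (ENSG00000185904, chromosome 10, 42475543 to 42495336, plus strand). It had 5.58, 9.61 and 2.80 in sh-Control and 949.8, 977 and 815 in sh-METTL3. The control libraries held only a few reads of it and every sh-METTL3 library many, a ratio of means of 152 and a log2 fold change of 7.15 (SE 0.32, adjusted p = 1.85e-07 by limma). Its nearest listed and nearest annotated protein-coding gene, ZNF33B, was lower (log2 fold change -0.42), so the rise of LINC00839 was not shared by that neighbour. LINC02159 rose from 15.1 ± 4.13 to 112 ± 12.5 and LINC01204 from 21.9 ± 4.37 to 137 ± 25.4 (SD, n = 3 each).

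Other large rises fell in groups of adjacent genes. At the start of chromosome 1, LINC02593 (916865 to 921016, minus strand) had 8.77, 10.6 and 14.0 in sh-Control and 217, 220.4 and 308 in sh-METTL3. AL645608.2 (911435 to 914948, plus strand) had 7.18, 5.76 and 9.35 against 169, 139 and 229.5. Both were more than 20 times higher by the ratio of means (22.3 and 24.1), and the protein-coding gene beside them, SAMD11, had a log2 fold change of 4.71. AL645608.6, which is in the same cluster and was named after its values were seen, had a log2 fold change of 4.93, from 0, 0 and 2.80 to 40.1, 42.5 and 59.3. On chromosome 17, AC005180.2 and AC005180.1, which lie 273 bases apart on opposite strands, had log2 fold changes of 2.56 and 2.46. Their nearest annotated protein-coding gene, GJC1, 3974 and 665 bases away, was not listed. Their nearest listed protein-coding gene, EFTUD2, 56744 and 55196 bases away by gene start, had -0.38. On chromosome 16, AC009041.2 (log2 fold change 2.58) lies beside SOX8, a transcription factor gene with a log2 fold change of 3.15. AC009041.2 also overlaps LMF1 on the same strand, a protein-coding gene that was not listed. Where members lie over or beside another gene, reads of the genes cannot be told apart unless strand was counted, and strandedness was not given in the sources used here.

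The list held 29 pairs of lincRNA genes with a gap of up to 50 kb between their gene bodies. In 26 of them both members were called, and these 26 pairs moved the same way, in a set of members of which 80.2% had positive log2 fold changes. The other 3 include AL645608.4, which was not called. The 29 pairs held 44 members, and several overlap or share a cluster, so they are not separate loci. Lower pairs were LINC01943 and CYTOR on chromosome 2 (log2 fold changes -1.34 and -0.73) and LINC02551 and AP003486.1 on chromosome 11 (-1.86 and -0.52). The latter lie beside SNX19, which was also lower (-0.80).

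Among members with a mean of at least 50, the largest falls were smaller than the largest rises. AC013451.2 (ENSG00000258976, chromosome 14, 74614693 to 74616647), 2315 bases upstream of LTBP2 on the same strand, had 194, 178 and 231 in sh-Control and 56.0, 56.7 and 38.1 in sh-METTL3. All sh-METTL3 libraries were far below the controls, with a log2 fold change of -1.99 (SE 0.20, adjusted p = 3.03e-05 by limma), and LTBP2, an extracellular matrix gene, had -0.63. LINC00327 on chromosome 13 had 248, 316 and 344 against 86.8, 83.8 and 64.9 (log2 fold change -1.93). Its nearest listed protein-coding gene, TNFRSF19, a member of the tumour necrosis factor receptor superfamily, fell by 2.11 on the log2 scale. DIRC3 on chromosome 2 had 168, 129 and 99.1 against 47.6, 50.3 and 37.0 (log2 fold change -1.51), and IGFBP5, its nearest listed protein-coding gene at 611914 bases, which encodes a binding protein of insulin-like growth factors, had -2.00. MIR137HG, which overlaps DPYD on the same strand, had -1.43, and DPYD had -1.17. AL035446.2, AC020912.1 and AC073365.1 had log2 fold changes of -1.53, -1.40 and -1.06. Of the 61 called falls 42 were at least a halving on the log2 scale, and of the 243 called rises 186 were at least a doubling.

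In 7 members 1 group had no read in any library. In 5 of them the controls were at 0, for example MNX1-AS1, which had 8.40, 10.3 and 4.48 in sh-METTL3 and was at least 2.87-fold higher, against a floor of 3 reads per library. MNX1, the homeobox gene whose start it adjoins, had a log2 fold change of 2.58. In LINC02383 and MIR122HG the sh-METTL3 libraries were at 0, and they were at least 1.30-fold lower by the same floor. With all 7 set to their bounds the median log2 fold change of the members was 1.21.

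The arrangement of a lincRNA gene relative to its nearest annotated protein-coding gene went with its direction. A member was called divergent when both genes started within 5 kb of each other, on opposite strands and pointing apart, with positions from GENCODE release 29. There were 68 such members, with a median gap of 266.5 bases. Of these, 66 were called higher, 1 was called lower and 1, ERICD, was not called. The other 240 members had 177 higher and 60 lower calls, and 75% of them had a positive log2 fold change. This split was examined after the values were seen and was not tested. With the limit at 1 kb, 52 of 54 divergent members were called higher and 1 lower. The median scaled count was 36.8 for divergent members and 32.7 for the others.

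**Figure D4:**
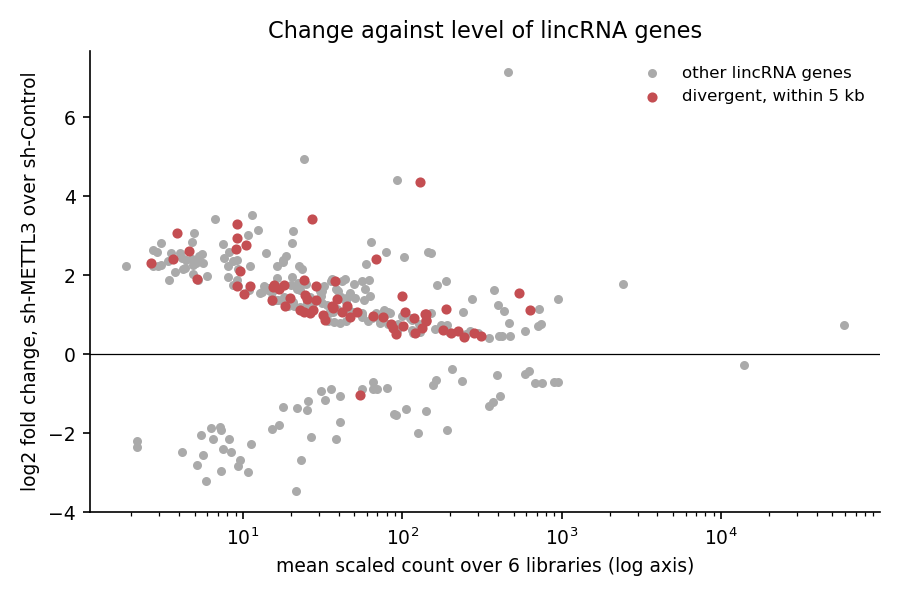
Log2 fold change of lincRNA genes (vertical axis, sh-METTL3 over sh-Control) against the mean scaled count over the 6 libraries (horizontal log axis), with divergent genes in red and all others in grey. Of the red points 1, FLJ42351 at -1.05, lies below 0, and the band around 0 is empty in a list that holds only genes called by the authors.

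Other arrangements had more falls. Within 5 kb, members on the same strand as the protein-coding gene had 11 higher and 6 lower calls when downstream of it and 6 higher and 3 lower when upstream, and convergent members had 5 and 2. The 48 members that overlap a protein-coding gene had 35 higher and 11 lower calls. The 159 members more than 5 kb away had 120 and 38. Divergent antisense genes, a gene type outside the members, had 29 higher and 3 lower calls of 33. The 5 divergent bidirectional promoter lncRNAs were all called higher. Divergent processed transcripts had 3 higher and 3 lower calls of 6, and 42.0% of the 481 protein-coding genes in a divergent arrangement were higher.

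In most divergent pairs the lincRNA gene had the more positive change. BAIAP2-DT, named after its values were seen, had 393, 379 and 436 in sh-Control and 802, 883 and 924 in sh-METTL3, a log2 fold change of 1.11. Its partner BAIAP2, a gene of actin regulation 241 bases away, had 0.74. RASAL2-AS1 had 24.7, 25.9 and 13.1 against 135, 138 and 75 (log2 fold change 2.40, adjusted p = 0.000231 by limma), with sh-METTL3 replicate 3 lower than the other sh-METTL3 libraries. RASAL2, which encodes a regulator of RAS and starts 157 bases away, had 0.35. FOXD2-AS1 had 10.4, 10.6 and 8.41 against 36.4, 47.7 and 32.5 (log2 fold change 1.87), and the forkhead gene FOXD2 had 1.09.

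In some pairs the partners moved in opposite directions. SNHG19, whose promoter is printed above, had 199, 208 and 209 in sh-Control and 302, 267 and 272 in sh-METTL3 (log2 fold change 0.44, SE 0.11, adjusted p = 0.00812 by limma). TRAF7, a ubiquitin ligase gene 340 bases away, fell by 0.31 on the log2 scale. AP002360.1 had 29.5, 29.8 and 34.6 against 58.8, 81.2 and 47.0 (log2 fold change 0.94), and EMSY had -0.80. AP002360.1 lost the call without sh-METTL3 replicate 2. PSMG3-AS1, which overlaps its partner on the other strand, rose from 82.7 ± 21.5 to 294 ± 43.6 (SD, n = 3 each) while PSMG3 had a log2 fold change of -0.32.

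The only divergent member called lower was FLJ42351, 167 bases from SLC20A1, a phosphate transporter gene. It had 73.4, 84.6 and 60.8 in sh-Control and 31.7, 24.5 and 52.6 in sh-METTL3, with sh-METTL3 replicate 3 close to the lowest control. Its log2 fold change was -1.05 (adjusted p = 0.0151 by limma) and that of SLC20A1 was -0.61. FLJ42351 lost the call when sh-Control replicate 1 or 2 or sh-METTL3 replicate 1 or 2 was left out, and its adjusted p ranged from 0.00121 to 0.0798 over the alternatives. ERICD, beside AGO2, had 21.5, 17.3 and 19.6 against 27.1, 30.9 and 73.9, with sh-METTL3 replicate 3 far above the other sh-METTL3 libraries.

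The 68 divergent members had 66 distinct partners, since GATD1 is the partner of both AP006621.2 and AP006621.3, which overlap on the same strand, and SIX3 that of both LINC01833 and SIX3-AS1. Of the 66 partners 40 were listed, 23 higher and 17 lower, and their log2 fold changes had a median of 0.27. In 38 of the 41 pairs with a listed partner, 2 of which share GATD1, the lincRNA gene had the more positive log2 fold change. The exceptions were LINC02593 with SAMD11, AC040977.1 with ALOX12, and FLJ42351. Pearson's r between the log2 fold changes of the partners was 0.75 over the 41 pairs, and 0.25 over the 37 pairs left without the 4 whose protein-coding gene rose by a log2 value of 2 or more. All pairs share the same 6 libraries, so r is a description only.

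**Figure D5:**
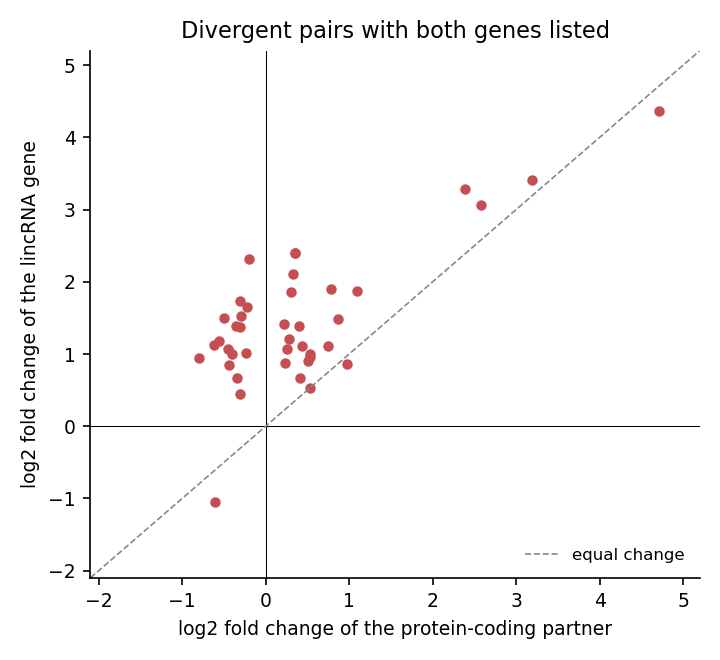
Log2 fold change of 41 divergent lincRNA genes (vertical axis) against that of the protein-coding partner (horizontal axis), with a dashed line of equal change. In 38 pairs the point lies above the line, and the partners lie on both sides of 0, with 24 higher and 17 lower.

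The promoters of divergent members differed in base composition from those of the others. An observed over expected CpG ratio of at least 0.6 was found in 91.7% of the 36 divergent members with a RefSeq promoter and in 39.3% of the 107 other members. The share was 75.8% for listed protein-coding genes and 48.9% for all promoters in the table. AP006621.3 and SNHG19, printed above, are of the first kind and LINC00839 of the second. The AP-1 motif TGANTCA, read on both strands, was in 0% of divergent promoters, in 11.2% of the others and in 7.71% of all promoters. CCAAT was in 30.6% of the divergent and 36.4% of the other promoters (34.6% of all), TATAAA in 8.33% and 12.1% (11.5% of all), and the κB motif in 2.78% and 6.54% (5.91% of all). A match is a string of letters and not a binding site.

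Each lincRNA gene was then related to the listed protein-coding gene with the nearest start on the same chromosome. The median distance was 97.0 kb, and 187 of 308 members (60.7%) had the direction of that gene, with both genes higher in 146 pairs and both lower in 41. The member was higher and the neighbour lower in 101 pairs, and the reverse held in 20. Protein-coding genes had the direction of their own nearest listed protein-coding gene in 58.6% of cases, close to the share for lincRNA genes. The shares split by the direction of the neighbour: 88.0% of members shared it where the neighbour was higher and 28.9% where it was lower, while 80.2% of all members had a positive log2 fold change. Pearson's r of the log2 fold changes was 0.31 over the 308 pairs.

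By distance the share ranged from 57.7% to 66.0%. It was 61.9% of 21 pairs within 5 kb, 66.0% of 94 from 5 to 50 kb, 57.7% of 137 from 50 to 500 kb and 58.9% of 56 further away. On the same strand 64.9% of pairs moved the same way, and on opposite strands 56.9%. By the nearest gene in the annotation, whether listed or not, the neighbour was listed for 142 members, and 101 of these pairs (71.1%) moved the same way. At close range AC017104.3, 378 bases from NCL, the nucleolin gene, had 22.3, 17.3 and 18.7 in sh-Control and 2.80, 0 and 3.36 in sh-METTL3. Its log2 fold change was -3.00 and that of NCL was -0.42. The sh-METTL3 values of AC017104.3 were near the floor of 3.34 scaled counts. Over the alternatives its log2 fold change ran from -4.28 to -2.32. AC002401.4, 90 bases upstream of PDK2, which encodes a kinase of the pyruvate dehydrogenase complex, rose from 23.1 ± 6.03 to 70.9 ± 22.5 (SD, n = 3 each), and PDK2 had a log2 fold change of 1.03.

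EPB41L4A is flanked and overlapped by members that moved in opposite directions. EPB41L4A-AS1, which lies inside it on the other strand, had 1196, 1184 and 1158 in sh-Control and 758, 751 and 649 in sh-METTL3 (log2 fold change -0.72, adjusted p = 4.19e-05 by limma). EPB41L4A itself had 23.1, 27.9 and 21.5 against 216, 218 and 252 (3.19). EPB41L4A-DT, a divergent member 267 bases from its start that was named after its values were seen, had 1.60, 9.61 and 2.80 against 42.9, 45.1 and 61.6 (3.41). The divergent transcript thus had a change close to that of the protein-coding gene, and the antisense transcript inside it fell.

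Host genes of small RNAs were taken from a fixed list. Of 26 snoRNA host genes 12 were listed, 4 higher and 8 lower. The median of their log2 fold changes was -0.58, opposite to the median of lincRNA genes. Over all listed genes 51.3% were called lower and the median was -0.21. Only 3 of the 12 are lincRNA genes. SNHG15 (chromosome 7, 44983023 to 44986961) had 529, 514 and 449.6 in sh-Control and 221, 191 and 187 in sh-METTL3, and fell by 1.31 on the log2 scale (SE 0.11, adjusted p = 1.04e-05 by limma). SNHG18 had 254, 270.0 and 265 against 376, 365 and 338 and rose by 0.45, as did SNHG19 by 0.44. SNHG18 and SNHG19 are divergent members and SNHG15 is not. Among hosts of other gene types, SNHG1 had -1.17 and GAS5 -0.69.

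Of 30 miRNA host genes on the list 11 were listed, 4 higher and 7 lower, and 7 of them are lincRNA genes. By position, 13 members on chromosomes other than 8 and Y hold an annotated miRNA on their own strand, 35 distinct mature miRNAs in all. Of these hosts 5 were called higher and 8 lower. For comparison, 46.6% of all listed genes were called higher and 51.3% lower, and 79.9% of called members were higher. The libraries measured host transcripts, not mature miRNAs. The mature sequences of 1 or more miRNAs in hosts that fell and in hosts that rose are given from RefSeq (GRCh38.p14), 5′ to 3′, with the seed (bases 2 to 8) in capitals. The first group lies in hosts that were lower.
hsa-let-7a-5p in MIRLET7BHG: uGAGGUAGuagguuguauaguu
hsa-let-7b-5p in MIRLET7BHG: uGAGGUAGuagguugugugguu
hsa-let-7c-5p in MIR99AHG: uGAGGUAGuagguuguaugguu
hsa-miR-22-3p in MIR22HG: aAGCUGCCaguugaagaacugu
hsa-miR-137-3p in MIR137HG: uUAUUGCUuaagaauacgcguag
hsa-miR-29b-3p in LINC-PINT: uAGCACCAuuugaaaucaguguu
hsa-miR-4435 in CYTOR and MIR4435-2HG: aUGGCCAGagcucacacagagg
The second group lies in hosts that were higher.
hsa-miR-221-3p in MIR222HG: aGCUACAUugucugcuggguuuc
hsa-miR-222-3p in MIR222HG: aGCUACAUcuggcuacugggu
hsa-miR-34a-5p in MIR34AHG: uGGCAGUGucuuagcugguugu
hsa-miR-210-3p in MIR210HG: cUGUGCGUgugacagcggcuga
The let-7 miRNAs share the seed GAGGUAG although they lie in different hosts, on chromosomes 22 and 21, and miR-221 and miR-222 share GCUACAU within a single host.

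Among the lower hosts, MIR22HG had 863, 838 and 866 in sh-Control and 488, 522 and 525 in sh-METTL3 (log2 fold change -0.74, adjusted p = 2.03e-05 by limma). MIR4435-2HG had 1086, 1104 and 1136 against 624, 677 and 731 (-0.71), and CYTOR, which holds another copy of the same miRNA, had 853, 974 and 1003 against 568, 559 and 569.9 (-0.73). As these loci are near-copies on chromosome 2, the counting could have split their reads, and the values of both are uncertain. MIRLET7BHG had -0.77 and MIR99AHG, near the floor in sh-METTL3 with 2.80, 3.87 and 1.12, had -1.91. MIR122HG, at 6.38, 2.88 and 3.74 in sh-Control and 0 in sh-METTL3, lies by ALPK2, which had -2.67.

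The 5 higher hosts included LINC01505, named after its values were seen, with a log2 fold change of 2.85 from 0.798, 0 and 0 to 13.1, 2.58 and 12.3. MIR34AHG, the host of a miRNA that p53 is known to induce, went from 536 ± 37.8 to 886 ± 60 (SD, n = 3 each) with a log2 fold change of 0.72, and was named after its values were seen. MIR210HG, the host of a miRNA known to respond to low oxygen, had 448, 524 and 431 against 588, 647 and 918 (log2 fold change 0.60). Its highest value was that of sh-METTL3 replicate 3, and it lost the call in limma without the intensity trend. MIR222HG had 365, 358 and 338 against 467, 433 and 576 (0.46).

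Further lists held few members, and their counts stand beside 46.6% of all listed genes called higher and 51.3% called lower. Of 10 genes linked to p53 5 were listed, 4 higher and 1 lower. Of these 5, LINC00475 (log2 fold change 1.82) is annotated as a pseudogene and is not a member. PURPL had 17.5, 11.5 and 12.2 against 32.7, 36.1 and 28.0 (log2 fold change 1.19), TP53TG1 55.8, 71.1 and 74.8 against 101, 95.4 and 124 (0.66), and NEAT1 is the third member that rose. TP53TG1 lost the call without sh-Control replicate 1 or sh-METTL3 replicate 3. LINC-PINT had 92.5, 94.2 and 81.3 against 63.4, 54.1 and 32.5 (-0.87) and lost the call without sh-Control replicate 1 or 2. Of 16 abundant or nuclear noncoding RNAs 7 were listed, 3 higher and 4 lower, and 6 of the 7 are members, OIP5-AS1 (-1.13) being a processed transcript. Among the members were LINC00665 with 226, 242 and 241 against 571, 515 and 591 (1.24) and LINC00467 with an adjusted p of 0.0341 by limma (0.62), which was lost in 6 alternatives. Of 18 noncoding RNAs linked to inflammation, which the LPS treatment made relevant, 1 was listed, LUCAT1, which is annotated as antisense and is not a member, with a log2 fold change of -0.42.

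The letters GGACT, a frequent context of m6A, were counted in the longest annotated transcript of each gene as a sequence feature. They occurred at 0.957 per kilobase in lincRNA genes and at 0.979 in protein-coding genes. Members called higher had 0.943 per kilobase and members called lower 1.00, while protein-coding genes called higher had 1.01 and those called lower 0.957. At least 1 occurrence was found in 72.7% of lincRNA and 94.2% of protein-coding genes, whose transcripts are longer. LINC00839, which rose most, and MIR22HG, which fell, held none in transcripts of 2253 and 2626 bases. NEAT1, which rose, held 0.835 per kilobase, and MALAT1 and SNHG15, which fell, held 1.49 and 0.963. For MALAT1 and SNHG15 a stretch of 60 bases with 2 occurrences in capitals is given from the GENCODE release 29 transcript, to show the letters in their context.
MALAT1, bases 2554 to 2613: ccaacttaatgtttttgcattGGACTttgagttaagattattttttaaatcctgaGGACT
SNHG15, bases 1028 to 1087: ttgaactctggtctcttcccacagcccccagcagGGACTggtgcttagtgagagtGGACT
Whether these sites were methylated was not measured in the values used here.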

How the data were processed

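RNA was extracted with Trizol and libraries were made with an Illumina TruSeq kit. The submitters' processing notes name HISAT2 2.0.5 and hg38. The study's methods name Cufflinks with RefSeq, but the table carries Ensembl identifiers, and all 7758 genes equal GENCODE release 29 in position, exonic length and type. The counter and strandedness were not given in the sources used here. The values per library are a signal that the authors deposited, the read count over 1 size factor, and 100% of values came out as whole reads (tolerance 0.05 reads). The authors also deposited group means, a log2 fold change and raw and adjusted p-values, which were not used as results. Their ratio gave 22977 tested genes, and no deposited adjusted p exceeded 0.05. Library depth outside the listed genes was not analysed here, so no interval or floor refers to it. In 13 rows symbols turned into dates were replaced.

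limma 3.58.1 (R 4.3.3) with an intensity trend was fitted to log2(scaled count + 1) of all listed genes without covariates, which understates the change of weak genes. P-values were adjusted by Benjamini-Hochberg over 22977 tests, with a threshold of 0.05. Alternatives used edgeR 4.0.16, DESeq2 1.42.0 and limma-voom on recovered reads, other filters, a replicate block and leaving out each library. The fit was tested on simulated data in which 200 of 7758 genes differed by 1 on the log2 scale. It recovered 96.4% of those with a mean of at least 50 and 43.8% of weaker ones, and called 8 unchanged genes. The simulation adjusted over 7758 tests, with a fixed dispersion and few changed genes. Its rates therefore do not carry over to the deposited list, in which most genes were called. No pair of replicates was alike within sampling noise.

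The members and gene lists were chosen with earlier results of these data known. Named lincRNA genes were those on the lists, the 10 largest rises and 10 largest falls among called genes whose groups did not overlap and whose mean reached 50, the 10 highest per kilobase, and those starting within 5 kb of a listed protein-coding gene, each with its nearest listed protein-coding gene. The 60 lincRNA genes so named are not all described. The split by divergent arrangement was chosen after seeing the data. Single values of the member on chromosome Y are not given. Some results that the naming rule selects are not reported here.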

Additional observations from a re-analysis of the deposited data

How the results depend on the processing

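Across 18 alternatives no member changed sign, but the list holds only called genes, so this says little about scaling. Some alternatives altered only the limit, the adjustment or the filter and kept the log2 fold changes, so no sign could change in them. RLE factors in edgeR shifted the median log2 fold change of all listed genes by 0.12 against the deposited scaling, and 81.7% of called members and 56.3% of all called genes were then higher. A filter at a mean of 50 tests fewer genes and left 118 called members, 91 higher and 27 lower, and 27 divergent members called higher. Leaving out 1 library gave 273 to 290 called members, 217 to 232 higher and 49 to 58 lower, and 59 to 63 divergent members called higher. The number of called members was otherwise 228 (with a doubling or halving) to 308 (DESeq2).

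METTL3 was not past the threshold in edgeR with RLE factors (-0.17) or TMM factors (-0.25), nor at -0.30 in limma without the trend, at 0.01 and with a doubling or halving. Leaving out 1 library gave -0.18 to -0.38, and the call was lost without any 1 control library. The share of members with the direction of the nearest listed protein-coding gene was 61.0% by smallest gap, 62.8% within 100 kb, 58.8% at a mean of at least 50 and 60.3% without chromosomes 11 and 15. The lincRNA share of counts rose by 0.0992 points without NEAT1 and MALAT1 and by 0.272 to 0.321 points without 1 library. The causes were not tested.

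The replicate numbers did not pair the libraries: deviations of same-numbered libraries had correlations of 0.0036, 0.019 and -0.015. With a replicate block 303 members were called, 244 higher and 59 lower, and the METTL3 log2 fold change had an adjusted p of 0.0178 by limma. Of the 60 named lincRNA genes 10 lost the call in some alternative other than the doubling or halving limit, among them MALAT1, FLJ42351, LINC-PINT, TP53TG1, AP002360.1 and LINC00467. 20 named genes lie under that limit. Depth limits the 66 members with a mean under 10, for which single reads move the values.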
